A study of Mus musculus with 6 samples.

Results

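The major urinary proteins (MUPs) of mice are encoded by a cluster of Mup genes on chromosome 4. Mup3, Mup7, Mup11, Mup17, Mup18, Mup20 and Mup21 are described here, 7 genes out of 49 entries with a Mup name and out of 55401 genes in the deposited table. They were picked by name, with results of these same livers already known, and the values that led to the choice are not on record. All 7 were found in the table, and all 7 passed the filter of a mean of at least 1 FPKM (fragments per kilobase, a level corrected for transcript length and sequencing depth) over the libraries. The 15 other Mup genes and 27 Mup pseudogene entries are given only where a value of the 7 depends on them.

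Poly(A) RNA was sequenced from livers of C57BL/6 mice in 3 groups of 2 libraries. The COS+APAP group (replicates 2 and 3) received COS, a compound the labels name only by this abbreviation, at 20 mg/kg 12 h and again 40 min before 400 mg/kg APAP (acetaminophen, also called paracetamol) injected into the peritoneal cavity, and was taken 6 h after APAP. The APAP group (replicates 1 and 3) received that APAP dose alone for 6 h, and the control group (replicates 1 and 3) carries the label control with no agent named. APAP overdose is a standard model of acute liver injury in which hepatocytes around the central vein die. Groups follow the titles, source names and treatment fields, whereas the protocol text gives COS to the samples numbered 5 and 6, positions that hold the APAP libraries in accession order. If the protocol text were right, COS+APAP and APAP would have to be swapped throughout, and differences between them would turn their sign. The COS+APAP titles carry the prefix 2 and the other 4 libraries the prefix 1, so a batch that follows the prefix cannot be told apart from COS. The labels do not say that libraries came from separate animals, and p-values therefore measure the spread between libraries, which may be technical.

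MUPs are small lipocalins, barrel-shaped carriers of small hydrophobic molecules, made by hepatocytes, secreted into blood and passed into urine. In urine they bind and slowly release volatile pheromones and act as scent signals themselves. Adult males make more than females because pulsatile growth hormone, acting through its receptor, JAK2 and STAT5B, drives their transcription together with glucocorticoids, thyroid hormone and androgens. The centre of the cluster holds recently duplicated, near-identical genes, and more divergent genes lie towards its ends.

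The coding sequences of Mup7, Mup11, Mup17 and Mup18 belonged to a group of 16 genes that each shared at least 97% of bases with the other 15. These central copies lay between positions 60066469 and 61782269 of chromosome 4 (GRCm38, GENCODE vM21). Mup11 and Mup18 differed at 1 coding base, Mup17 and Mup18 at 4, Mup11 and Mup17 at 5, and Mup7 and Mup17 at 7. Mup18 (546 coding bases) matched Mup9 (543 coding bases), a gene outside the 7, at all 543 aligned bases. Mup3 and Mup21 were 96.3% identical to each other at 20 differing bases, and Mup20 came no closer than 91.7% to any Mup gene, its nearest being Mup5. To show how little separates the central copies, the same 90 coding bases of exon 2 are printed for each gene. The stretch was picked because no other gap-free 90 bases varied at more positions (4) among Mup7, Mup11, Mup17 and Mup18. Capitals stand at the bases that differ from Mup17 (chr4:61595203-61595292, minus strand, like the others).
Mup17: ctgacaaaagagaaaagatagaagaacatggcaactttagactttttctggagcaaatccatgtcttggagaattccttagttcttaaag
Mup7: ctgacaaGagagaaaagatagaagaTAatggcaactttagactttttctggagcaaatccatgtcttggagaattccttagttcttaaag
Mup11: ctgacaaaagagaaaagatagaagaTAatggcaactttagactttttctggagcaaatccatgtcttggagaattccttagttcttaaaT
Mup18: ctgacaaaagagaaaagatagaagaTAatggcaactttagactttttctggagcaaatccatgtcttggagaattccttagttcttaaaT
Mup20: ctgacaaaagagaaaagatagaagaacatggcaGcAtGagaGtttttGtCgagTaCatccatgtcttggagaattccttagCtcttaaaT
Mup3: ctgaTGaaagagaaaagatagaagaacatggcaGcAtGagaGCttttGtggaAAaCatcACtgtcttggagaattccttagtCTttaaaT
Mup21: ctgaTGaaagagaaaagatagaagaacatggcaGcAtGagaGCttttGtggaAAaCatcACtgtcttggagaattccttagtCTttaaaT
In these bases Mup7, Mup11 and Mup18 each differed from Mup17 at 3 positions, and Mup11 and Mup18 read the same. Mup20 differed from Mup17 at 10 positions, and Mup3 and Mup21 at 16 each.

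These differences set how far reads can tell the genes apart. Of all 100-base windows of its transcript, Mup20 shared none with another Mup gene, so that 100% were its own, and the share was 97.1% for Mup3 and 95.5% for Mup21. The share of unique 100-base windows was 40.6% for Mup17, 16.5% for Mup11, 14.6% for Mup7 and 12.9% for Mup18. Over 300-base windows, the mean insert size per the labels' protocols, every window was unique for Mup17, Mup3, Mup20 and Mup21, but 57.6% for Mup7, 39.0% for Mup11 and 26.1% for Mup18. Single values of Mup7, Mup11 and Mup18 are therefore uncertain wherever the authors' counting split reads among copies, and sums over copies are given beside them. By these windows Mup17 is the best resolved of the 4 central genes described. Only coding transcripts of the 22 Mup genes were compared, not the 27 pseudogene entries, so all these shares are upper bounds.

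**Figure D1:**
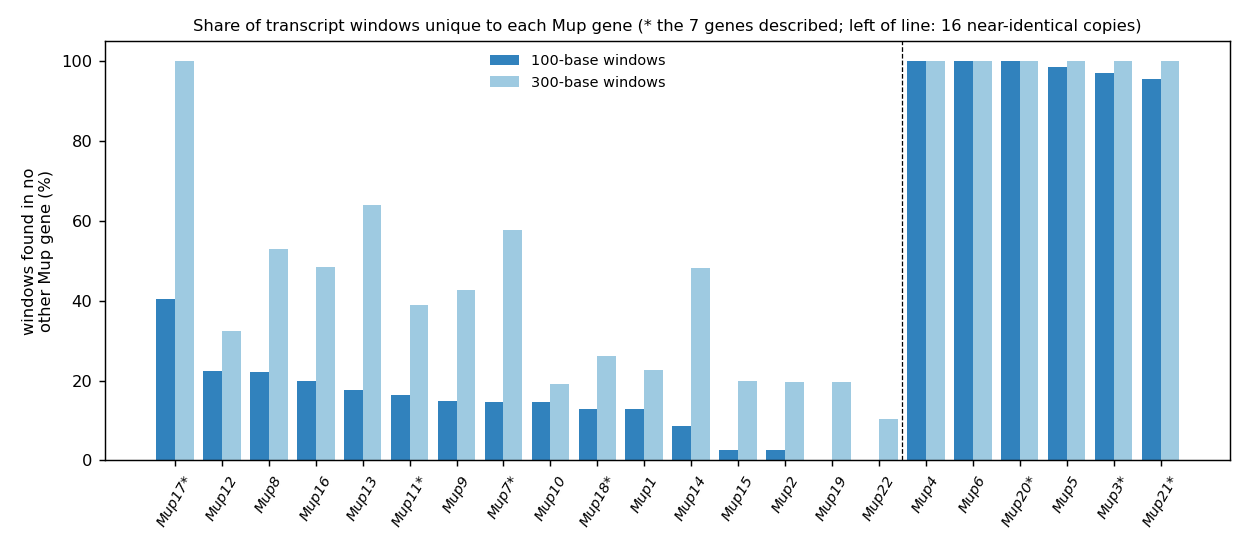
Bars give, for each of the 22 Mup genes, the percentage of 100-base (dark) and 300-base (light) windows of its transcript found in no other Mup gene, with asterisks on the 7 genes described. The 16 near-identical copies stand left of the dashed line, where Mup17 reached 40.6% and 100%, and Mup3, Mup20 and Mup21 on the right lay at 95.5% or more.

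All 7 genes lie on the minus strand. From the lower coordinates upwards, Mup7 (ENSMUSG00000073842) spans 60066469 to 60070475, Mup11 (ENSMUSG00000073834) 60658466 to 60662411, Mup17 (ENSMUSG00000096688) 61591929 to 61595871 and Mup18 (ENSMUSG00000078674) 61670177 to 61674136. Further on lie Mup20 (ENSMUSG00000078672) at 62050234 to 62054158, Mup3 (ENSMUSG00000066154) at 62083476 to 62087342 and Mup21 (ENSMUSG00000066153) at 62147932 to 62150863. Coordinates are as in the deposited table, and 48 of its 49 Mup entries had the same ones in GENCODE vM21.

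The promoters of Mup17 and Mup18 are shown because these genes moved together, beside that of Mup11, which did not move with them. The windows run from 250 bases before to 50 after each gene's start in RefSeq (GRCm38.p6), which held 6 of the 7 genes, and capitals mark the TATA-type motif TATATAA. They are Mup17 at chr4:61595783-61596082, Mup18 at chr4:61674045-61674344 and Mup11 at chr4:60662346-60662645, all on the minus strand.
Mup17: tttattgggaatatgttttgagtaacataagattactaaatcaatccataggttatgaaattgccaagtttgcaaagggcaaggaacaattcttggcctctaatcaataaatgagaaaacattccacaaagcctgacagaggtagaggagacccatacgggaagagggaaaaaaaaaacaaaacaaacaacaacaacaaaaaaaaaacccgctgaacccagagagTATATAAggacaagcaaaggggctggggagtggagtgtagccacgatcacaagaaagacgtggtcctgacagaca
Mup18: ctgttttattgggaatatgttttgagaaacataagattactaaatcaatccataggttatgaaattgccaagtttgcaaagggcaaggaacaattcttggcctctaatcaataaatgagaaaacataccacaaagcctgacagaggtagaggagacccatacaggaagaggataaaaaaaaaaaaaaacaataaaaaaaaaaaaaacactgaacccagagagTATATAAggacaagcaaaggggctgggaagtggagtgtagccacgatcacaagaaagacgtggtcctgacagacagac
Mup11: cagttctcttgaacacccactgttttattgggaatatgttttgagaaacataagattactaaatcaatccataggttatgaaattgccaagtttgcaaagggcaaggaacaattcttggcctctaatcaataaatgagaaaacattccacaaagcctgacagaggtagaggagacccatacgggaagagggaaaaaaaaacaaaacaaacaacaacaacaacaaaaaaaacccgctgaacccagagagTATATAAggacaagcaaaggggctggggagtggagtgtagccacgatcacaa
Aligned, the Mup11 and Mup17 windows differed at 3 of 276 bases (98.9% identity) and the Mup17 and Mup18 windows at 14 of 293 (95.2%). Over aligned bases, with gaps left out, the Mup17 window was closer to that of Mup11 than to that of Mup18. Any part of promoter sequence in the Mup changes was not tested. TATATAA, searched on both strands, was in the windows of Mup3, Mup11, Mup17, Mup18 and Mup21, against 3.25% of 32817 promoters. The Mup7 window did not hold it, but that window ended before the bases where the near-identical Mup11 and Mup17 windows carry the motif. The STAT5-type letters TTCNNNGAA (8.29% of promoters) and the C/EBP-type letters TTGCNNAA (10.8%) were in none of the 6 windows, and AGAACA, a hexamer of glucocorticoid response elements (19.0%), was in those of Mup3 and Mup21. These counts describe letters in short windows and say nothing about binding.

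The libraries held 71115112 to 76669799 estimated counts. The 7 genes took 1.08% and 0.991% of them in COS+APAP, 1.15% and 1.54% in APAP, and 1.22% and 0.844% in control. Mitochondrial transcripts took 11.8% and 10.8% in COS+APAP, 8.28% and 7.37% in APAP, and 12.8% and 16.1% in control. The Y-linked genes Ddx3y, Eif2s3y, Kdm5d and Uty were detected in every library, and Xist, the RNA of the inactive X chromosome, was at 0.02 FPKM or less. Alb, the albumin gene and main hepatocyte marker, lay between 26619 and 39526 FPKM and did not pass the test in any comparison. It took 7.02% and 6.81% of counts in COS+APAP, 10.1% and 9.21% in APAP, and 7.49% and 7.51% in control.

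Mup3 was the highest of the 7 genes in all 6 libraries and held rank 22 by mean FPKM among all genes of the table. Mup7 held rank 41, Mup20 rank 45, Mup11 rank 119, Mup17 rank 148, Mup18 rank 197 and Mup21 rank 455. In both COS+APAP libraries the order by FPKM was Mup3, Mup7, Mup20, Mup17, Mup11, Mup18 and Mup21. In both APAP libraries it was Mup3, Mup7, Mup20, Mup11, Mup21, Mup18 and Mup17, and in both control libraries Mup3, Mup20, Mup7, Mup11, Mup18, Mup17 and Mup21. Mup17 thus stood above Mup11 in COS+APAP, last in APAP and next to last in control. Neighbours in these orders were not all separated by more than the spread between libraries. In control, Mup20 at 2378 and 1661 FPKM overlapped Mup7 at 2074 and 693 FPKM, and Mup11 at 485 and 334 FPKM overlapped Mup18 at 348 and 312 FPKM.

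**Figure D2:**
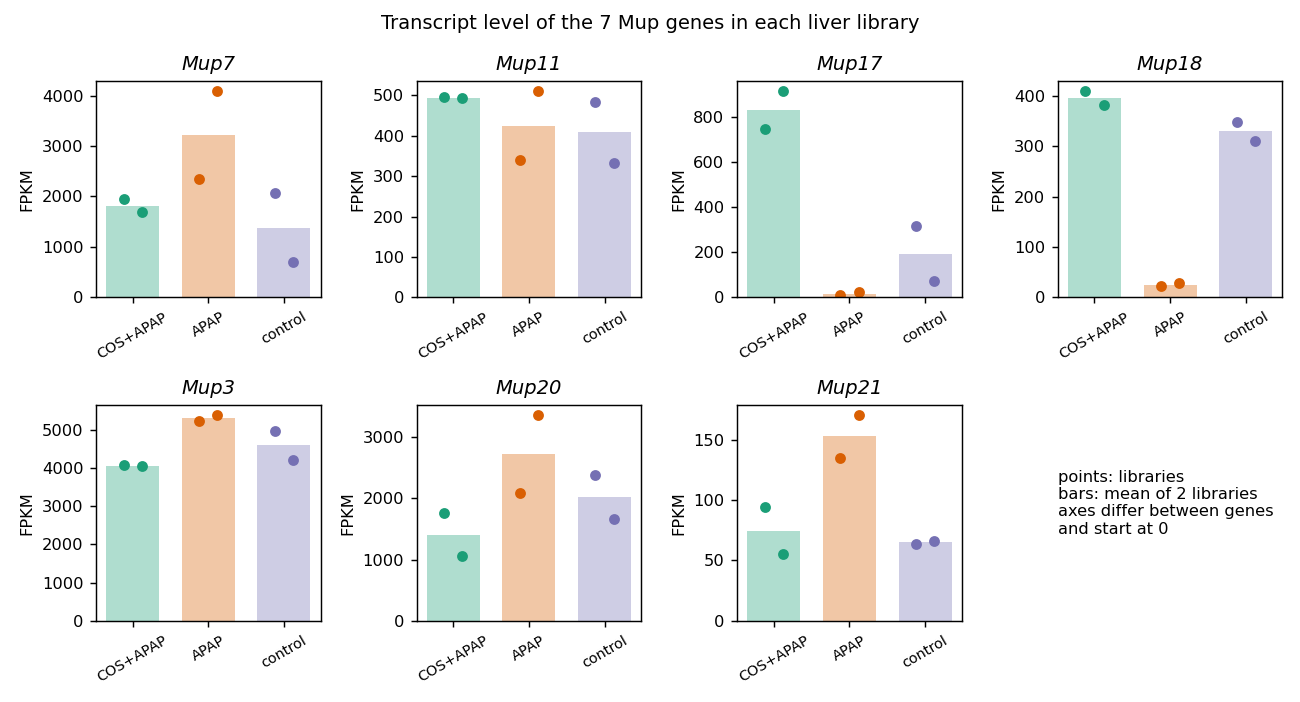
Each panel gives the FPKM of 1 gene, with points for libraries, bars for the mean of 2 libraries and axes that start at 0. In APAP livers Mup17 and Mup18 lay below both other groups and Mup3, Mup7 and Mup21 above both, of which only Mup21 passed the test. The libraries of Mup11 overlapped between APAP and each other group.

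APAP livers were set against control livers to see the state 6 h after the toxic dose. Mup17 and Mup18 were more than 10-fold lower in APAP livers, Mup21 was higher, and Mup3, Mup7, Mup11 and Mup20 did not pass the test. The 7 genes therefore did not all move one way, and their summed FPKM overlapped between the groups. The overlap depended on scaling. With counts scaled as in the test (TMM), the sums were 12130 and 15538 relative units in APAP, against 11431 and 7784 in control. These did not overlap, though APAP replicate 1 lay little above control replicate 1. The sum over all 22 Mup genes did not overlap, at 16562 and 22686 FPKM in APAP against 16041 and 12068 FPKM in control. Its log2 ratio was 0.48, and APAP replicate 1 lay little above control replicate 1. In the quasi-likelihood test of edgeR, with p-values adjusted by the Benjamini-Hochberg method, 3 of 7 genes were called at an adjusted p below 0.05, 1 higher and 2 lower, against 45.4% of all 10051 tested genes (23.3% higher and 22.1% lower). Since the genes were picked with these results known, their adjusted p-values describe them and are no independent evidence. Erythroid markers moved with these groups too, at a summed 1492 and 1075 FPKM in APAP livers against 298 and 269 FPKM in control livers, and their part in the Mup values was not tested.

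Mup18, a central copy, had 21.7 and 28.6 FPKM in APAP livers, against 348 and 312 FPKM in control livers. The groups lay far apart, at means of 25.1 ± 4.91 FPKM in APAP and 329.9 ± 25.9 FPKM in control (SD, n = 2 each). Mup18 was 12.0-fold lower (log2 fold change -3.58 ± 0.17 SE, adjusted p = 0.000878). Mup17 had 7.83 and 23.75 FPKM in APAP livers, against 315 and 70.95 FPKM in control livers. Means were 15.8 ± 11.3 FPKM in APAP and 193 ± 172 FPKM in control (SD, n = 2 each). The groups of Mup17 did not overlap, but the higher control library was 4.44 times the lower one and the higher APAP library 3.03 times the lower. Mup17 was 11.3-fold lower (log2 fold change -3.49 ± 0.86, adjusted p = 0.0226). At its lowest, in APAP replicate 1, Mup17 had 577 estimated counts. The Mup17 call was lost without APAP replicate 1 (log2 fold change -2.92, adjusted p = 0.0946), without control replicate 1 (-2.03, adjusted p = 0.0618) and with replicate number as a block (-3.31, adjusted p = 0.107), while Mup18 was called under every alternative run. Without APAP replicate 3 the Mup17 change was -4.47, and without control replicate 3 it was -4.20, both still called.

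The other central genes gave no call. Mup7 had 2337 and 4087 FPKM in APAP livers, against 2074 and 693 FPKM in control livers. The libraries did not overlap, yet the control libraries differed 2.99-fold, and the log2 fold change was 1.34 ± 0.54 (adjusted p = 0.0949). Without control replicate 1 it was 2.35 (adjusted p = 0.0162), and DESeq2 called it with all libraries (adjusted p = 0.0233). Without control replicate 3 the Mup7 change was 0.75 (adjusted p = 0.166), and without APAP replicate 3 it was 0.91 (adjusted p = 0.323). Mup11 had 341 and 510.3 FPKM in APAP livers, against 485 and 334 FPKM in control livers, with overlap and a log2 fold change of 0.19 ± 0.25 (adjusted p = 0.578). Its sign turned without APAP replicate 3 (-0.10) and without control replicate 3 (-0.07).

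The 3 divergent genes all lay higher on average in APAP livers, though only Mup21 passed. Mup21, the lowest of the 3, had 135 and 170.3 FPKM in APAP livers, against 63.4 and 66.4 FPKM in control livers. The groups did not overlap, and the log2 fold change was 1.37 ± 0.26 (adjusted p = 0.0100). Mup3 had 5217 and 5380 FPKM in APAP livers, against 4974 and 4193 FPKM in control livers. It did not overlap between groups, with a log2 fold change of 0.35 ± 0.16 (adjusted p = 0.122, and 0.0286 by DESeq2). Mup20, which encodes darcin, the male urinary protein that attracts females and conditions their scent memory, had 2087 and 3362 FPKM in APAP livers, against 2378 and 1661 FPKM in control livers. Its libraries overlapped (log2 fold change 0.56 ± 0.35, adjusted p = 0.235). Non-overlap by itself was common: 5 of 7 genes did not overlap, against 76.2% of all tested genes.

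The comparison of COS+APAP with APAP asked how livers given COS before APAP stood against livers given APAP alone. The genes called between APAP and control were again the ones called here, each with the opposite sign. Both comparisons share the APAP libraries, so opposite signs are not independent of each other. Mup17 and Mup18 were higher in COS+APAP livers, Mup21 was lower, and 4 genes did not pass. This made 3 of 7 called, 2 higher and 1 lower, against 22.4% of all tested genes (11.2% higher and 11.1% lower).

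Mup18 had 409.7 and 383 FPKM in COS+APAP livers, against 21.7 and 28.6 FPKM in APAP livers. It was 16.01-fold higher (log2 fold change 4.001 ± 0.17, adjusted p = 0.00174), and it was called under every alternative run. Mup17 had 745 and 911.5 FPKM in COS+APAP livers, against 7.83 and 23.75 FPKM in APAP livers. This was the widest gap among the 7 genes in any comparison, 53.6-fold (log2 fold change 5.74 ± 0.96, adjusted p = 0.0161). Without APAP replicate 3 the log2 fold change was 6.72 (adjusted p = 0.0416). The Mup17 call was lost without COS+APAP replicate 2 (5.89, adjusted p = 0.0542), without COS+APAP replicate 3 (5.58, adjusted p = 0.0525) and without APAP replicate 1 (5.16, adjusted p = 0.0747), with the direction kept each time.

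Mup21 had 94.2 and 55.4 FPKM in COS+APAP livers, against 135 and 170.3 FPKM in APAP livers, a log2 fold change of -1.01 ± 0.26 (adjusted p = 0.0441). The Mup21 call stood near the threshold. It was lost without COS+APAP replicate 3 (-0.68), without either APAP replicate (-1.15 and -0.86) or either control replicate, with no filter on low values and with only these groups in the fit (adjusted p from 0.0706 to 0.148). Mup20 had 1755 and 1058 FPKM in COS+APAP livers, against 2087 and 3362 FPKM in APAP livers (log2 fold change -0.93 ± 0.35, adjusted p = 0.112, and 0.0315 by DESeq2). Mup3 had 4076 and 4039 FPKM in COS+APAP livers, against 5217 and 5380 FPKM in APAP livers. The Mup3 libraries agreed closely within each group, at a log2 fold change of -0.37 ± 0.16 (adjusted p = 0.146, and 0.0233 by DESeq2). Mup7 had 1941 and 1699 FPKM in COS+APAP livers, against 2337 and 4087 FPKM in APAP livers (log2 fold change -0.79 ± 0.54, adjusted p = 0.325). Mup11, at 497 and 493 FPKM in COS+APAP livers against 341 and 510.3 FPKM in APAP livers, was the only one of the 7 whose libraries overlapped (0.24 ± 0.25, adjusted p = 0.523). The other 6 of 7 did not overlap, against 68.5% of all tested genes.

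**Figure D3:**
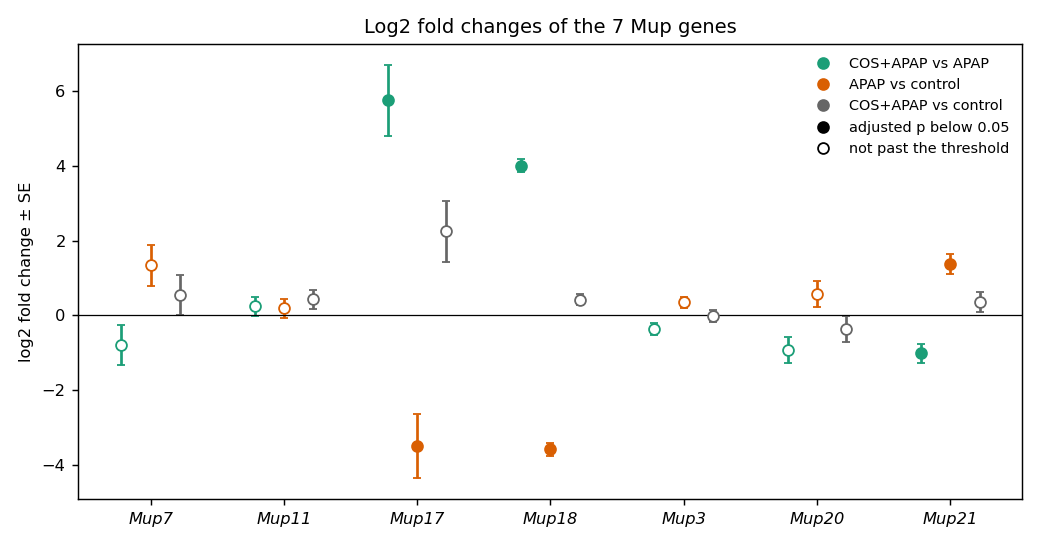
Points give the edgeR log2 fold change of each gene with its standard error (SE), green for COS+APAP vs APAP, orange for APAP vs control and grey for COS+APAP vs control, filled where the adjusted p was below 0.05. Mup17 and Mup18 lie at 4.001 or more in green and at -3.49 or less in orange, Mup21 lies on the other side of 0 in both, and no grey point is filled.

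The comparison of COS+APAP with control asked whether livers given COS before APAP stood apart from control livers. By edgeR 0 of 7 genes were called, against 21.0% of all tested genes (10.7% higher and 10.3% lower). DESeq2 also called 0, and 2 of 7, Mup17 and Mup18, had an unadjusted edgeR p below 0.05. Mup17 had 745 and 911.5 FPKM in COS+APAP livers, against 315 and 70.95 FPKM in control livers, above both control libraries (log2 fold change 2.25 ± 0.81, adjusted p = 0.107). It was 3.71 without control replicate 1 (adjusted p = 0.0511) and 1.54 without control replicate 3 (adjusted p = 0.222). Mup18 had 409.7 and 383 FPKM in COS+APAP livers, against 348 and 312 FPKM in control livers (0.42 ± 0.15, adjusted p = 0.107).

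The remaining 5 genes had log2 fold changes from -0.37 (Mup20) to 0.55 (Mup7), with adjusted p from 0.275 (Mup11) to 0.937 (Mup3). Mup3 lay at 4076 and 4039 FPKM in COS+APAP livers, below both control libraries at 4974 and 4193 FPKM, although the fitted change after scaling was -0.02 ± 0.15. The fitted change is of TMM-scaled counts, whereas the FPKM are as deposited. In all, 4 of 7 genes (Mup3, Mup11, Mup17 and Mup18) did not overlap in FPKM, against 67.3% of tested genes. A p above the threshold with 2 libraries a group does not show that the levels were alike.

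Over the 7 genes the median log2 fold change was 0.35 for APAP vs control, -0.37 for COS+APAP vs APAP and 0.42 for COS+APAP vs control. Over all tested genes it was -0.00, 0.01 and 0.02 in the same comparisons. The medians hide the spread among the genes, which ran from -3.58 to 1.37, from -1.01 to 5.74 and from -0.37 to 2.25.

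Because near-identical copies share reads, sums are given as well, and the sum over all 16 central copies holds every gene of that near-identical group. The 7 genes summed to 9518 and 8639 FPKM in COS+APAP, 10146 and 13561 FPKM in APAP, and 10637 and 7330 FPKM in control. These FPKM sums of APAP and control overlapped, as did those of COS+APAP and control. After TMM scaling the sums of APAP (12130 and 15538) and control (11431 and 7784) did not overlap. Those of COS+APAP (11226 and 10408) and control still did. The log2 ratio of group means in FPKM was 0.40 for APAP over control, -0.38 for COS+APAP over APAP and 0.02 for COS+APAP over control. The last of these turned its sign with single libraries left out (-0.23 to 0.31). In bulk RNA, fewer hepatocytes and less RNA per hepatocyte cannot be told apart, for sums and single genes alike.

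The 3 divergent genes Mup3, Mup20 and Mup21, nearly all of whose 100-base windows are their own, summed to 5926 and 5153 FPKM in COS+APAP, 7439 and 8912 FPKM in APAP, and 7416 and 5921 FPKM in control. APAP lay above both other groups in these libraries, though by only a small margin over control replicate 1. The log2 ratios were 0.29 for APAP over control, -0.56 for COS+APAP over APAP and -0.27 for COS+APAP over control. Mup3 made up 39.7% to 57.2% of the 7-gene sum in a library, so the sum leans on it.

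The 16 central copies together summed to 11107 and 11296 FPKM in COS+APAP, 9115 and 13763 FPKM in APAP, and 8618 and 6139 FPKM in control. APAP was thus not below control in this sum, while Mup17 and Mup18 inside it were. Mup17 and Mup18 added up to 1154 and 1294 FPKM in COS+APAP, 29.5 and 52.4 FPKM in APAP, and 663 and 383 FPKM in control. Their share of the 16-copy sum was 10.4% and 11.5% in COS+APAP, 0.323% and 0.380% in APAP, and 7.69% and 6.23% in control. The other 14 central copies summed to 9953 and 10002 FPKM in COS+APAP, 9086 and 13710 FPKM in APAP, and 7955 and 5756 FPKM in control. The low Mup17 and Mup18 values in APAP livers thus stood beside a higher sum of the other central copies than in control livers, and whether reads were assigned differently among copies was not tested.

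**Figure D4:**
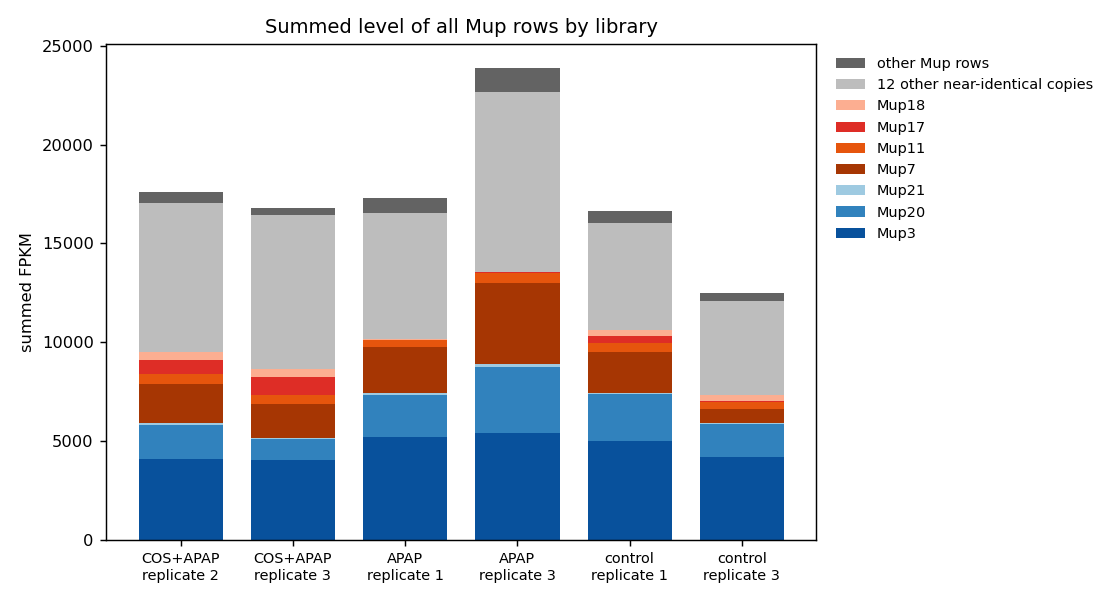
Stacked bars give the summed FPKM of all Mup entries in each library, with the divergent genes in blue, the 4 central genes described in brown to pink, the 12 other near-identical copies in light grey and all remaining entries in dark grey. Mup17 and Mup18 are visible in the COS+APAP and control bars and shrink to a thin line in APAP, where the whole bars reach 17306 and 23896 FPKM.

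The 12 central copies outside the 7 showed which neighbours moved with Mup17 and Mup18. Mup8 had 309 and 1468 estimated counts in APAP livers, against 13086 and 8813 in control livers. It fell with Mup17 and Mup18 (log2 fold change -3.52, adjusted p = 0.0119) and was higher in COS+APAP than in APAP livers (3.82, adjusted p = 0.0211). Mup22 was higher in APAP than in control livers (1.52, adjusted p = 0.0212), but none of its 100-base windows was its own. The other 10 of these 12 were not called in that comparison. Values of single copies could be erratic between libraries of a group. Mup19, which also had no 100-base window of its own, had 16 and 4148 estimated counts in APAP livers.

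Along the chromosome the lower values in APAP livers sat side by side. Of the 24 Mup entries tested, the 6 consecutive ones from Mup16 to the pseudogene Mup-ps16 all had a negative log2 fold change against control (-6.34 to -1.73). Among the genes of this run, Mup17 and Mup18 were called. The pseudogenes Mup-ps13 and Mup-ps16 passed the filter on mean FPKM through the control libraries, where they are high, so their lower calls add nothing to the run. Mup-ps16 had 0 and 7 estimated counts in APAP livers, against 294 and 343 in control livers. Its 2 COS+APAP libraries had 97 and 81 estimated counts. A second run of 5 entries from Mup2 to Mup10 was also negative (-3.52 to -0.19), with Mup8 the 1 called. The 4 entries from Mup-ps19 to Mup21 at the far end, which include Mup20 and Mup3, were all positive (0.35 to 1.37), with 2 called. Over all tested genes, 22.1% were called lower and 23.3% higher in APAP against control. The genes of both negative runs are near-identical copies that can share reads, so their values are not fully separate measurements. The arrangement along the chromosome was noticed after the values were seen and was not tested.

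**Figure D5:**
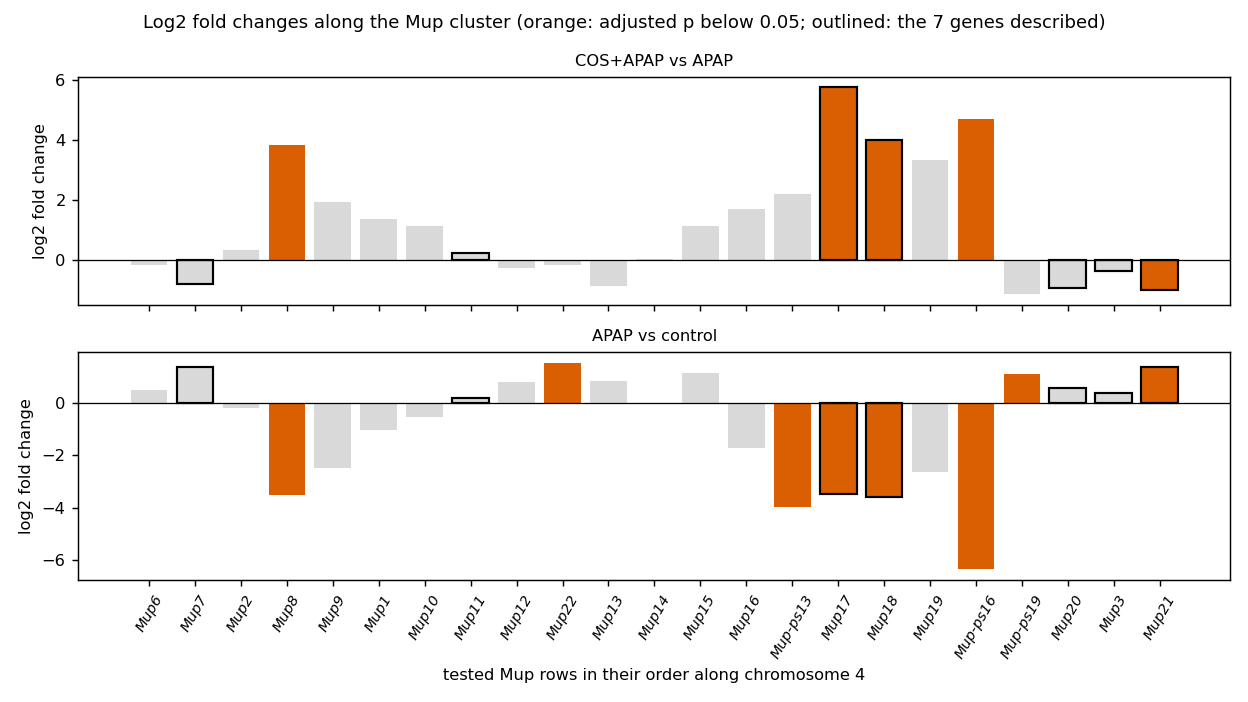
Bars give the edgeR log2 fold change of 23 of the 24 tested Mup entries in their order along chromosome 4, for COS+APAP vs APAP above and APAP vs control below, orange where the adjusted p was below 0.05 and outlined for the 7 genes described. The run from Mup16 to Mup-ps16 lies below 0 in the lower panel and above 0 in the upper one. Mup-ps17, at 0 in every APAP and control library, is left out.

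Genes of the growth hormone, STAT5 and IGF axis, both regulators and outputs, were read from the same fit. For this and the following lists, the shares over all tested genes are 23.3% higher and 22.1% lower in APAP vs control, 11.2% and 11.1% in COS+APAP vs APAP, and 10.7% and 10.3% in COS+APAP vs control. List counts near these shares are no result about the list. In APAP vs control 6 of 18 tested genes of the axis were higher, 5 lower and 7 not called (median 0.14). In COS+APAP vs APAP 0 were higher, 5 lower and 13 not called (median -0.72), and in COS+APAP vs control 2 were higher, 5 lower and 11 not called (median -0.38). Ghr, the growth hormone receptor, had 14.8 and 14.2 FPKM in COS+APAP, 12.8 and 11.9 FPKM in APAP, and 30.2 and 28.5 FPKM in control livers. Both APAP-treated groups lay below control (APAP -1.11, adjusted p = 0.0019, and COS+APAP -0.86, adjusted p = 0.00867). Jak2, the receptor's kinase, was higher in APAP than in control (1.13, adjusted p = 0.00819) and lower in COS+APAP than in APAP (-1.43, adjusted p = 0.0113). Stat5a, Stat5b and Igf1 were not called in any comparison. The part of this axis in the Mup values was not tested.

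Feedback inhibitors and targets of STAT5 had their own signs. Cish, a STAT5-induced inhibitor, had 0.61 and 0.33 FPKM in COS+APAP, 3.21 and 1.34 FPKM in APAP, and 7.26 and 9.68 FPKM in control livers. It was lower in COS+APAP than in APAP livers (-2.27, adjusted p = 0.0318), with both COS+APAP values below 1 FPKM. Socs2, another such inhibitor, was also lower in COS+APAP than in APAP livers (-2.08, adjusted p = 0.0138). Socs3, an inhibitor induced by cytokines, was higher in APAP than in control livers (2.44, adjusted p = 0.0063) and lower in COS+APAP than in APAP livers (-1.60, adjusted p = 0.0375). Igfals, the acid-labile subunit that carries IGF1, was lower in APAP (-1.64, adjusted p = 0.0166) and in COS+APAP (-2.47, adjusted p = 0.0123) than in control livers. Bcl6, a repressor of growth hormone targets (-1.27, adjusted p = 0.0183), and Onecut1, a liver transcription factor (-2.66, adjusted p = 0.031), fell in APAP against control. Igfbp1, which binds IGF1, had the largest rise of this list in APAP against control (5.12, adjusted p = 0.011). In COS+APAP against control the genes called higher were Stat3 (1.12) and Egfr (0.93).

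Among nuclear receptors and liver transcription factors, 4 of 19 were higher and 6 lower in APAP vs control (median -0.21), against 23.3% and 22.1% of all tested genes. In COS+APAP vs APAP 5 were higher and 1 lower (median -0.04), and in COS+APAP vs control 3 were higher and 2 lower (median -0.13). Nr3c1, the glucocorticoid receptor, and Zhx2, a transcription factor known to act on Mup genes in liver, were not called in any comparison. Hnf4a, a master regulator of hepatocyte genes, was higher in APAP (1.10, adjusted p = 0.00668) and in COS+APAP (0.84, adjusted p = 0.0299) than in control livers. Cebpd rose (2.44) and the clock output factor Dbp (-4.09) and the xenobiotic receptor Nr1i3 (-2.06) fell in APAP against control. In COS+APAP against APAP, the coactivator Ppargc1a (1.68) rose and the thyroid hormone receptor Thra (-1.05) fell. Against control, COS+APAP livers were higher in Ppargc1a (1.71) and Cebpd (1.57) and lower in Dbp (-3.04) and Nr1i3 (-0.98).

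Other genes that differ between male and female liver did not all move like Mup17 and Mup18. Of 26 tested male-biased genes, 6 were higher and 7 lower in APAP vs control (median 0.11), near the 23.3% and 22.1% of all tested genes, 1 higher and 2 lower in COS+APAP vs APAP (-0.42), and 2 higher and 6 lower in COS+APAP vs control (-0.21). Cyp2u1 had the signs of Mup18, lower in APAP than in control (-2.89) and higher in COS+APAP than in APAP (1.97). Hsd3b2 was lower in APAP than in control (-3.52) and in COS+APAP than in control (-3.93), and Hsd3b5 lower in COS+APAP than in control (-4.91). Elovl3 was higher than control in both APAP (3.50) and COS+APAP (2.58), and Ugt2b38 in APAP (1.48). Selenbp2 (-1.90) and Cyp2f2 (-1.16) were lower in COS+APAP than in APAP livers. Of 16 tested female-biased genes, 3 were higher and 6 lower in APAP vs control (median -0.38), 3 and 3 in COS+APAP vs APAP (-0.02), and 3 and 3 in COS+APAP vs control (-0.27). Cyp2a4 was lower in APAP than in control (-3.33) and higher in COS+APAP than in APAP (3.57), the same signs as Mup17 and Mup18. Cyp2c69 (-2.75) fell and Cyp39a1 (2.60) and Cyp4a14 (1.73) rose in APAP against control. In COS+APAP livers Tox was higher than in APAP (1.93) and control (1.92) livers, Acot3 lower than in both (-3.59 against APAP and -3.84 against control), Cyp4a14 lower than in APAP (-1.40), Cyp17a1 higher (1.76) and Abcd2 lower (-2.39) than in control livers.

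Of 13 other lipocalins and related carriers tested, 3 were higher and 0 lower in APAP vs control (median 0.23), 5 and 1 in COS+APAP vs APAP (-0.11), and 6 and 0 in COS+APAP vs control (0.42). Lcn2, an iron-siderophore-binding lipocalin of the acute phase, had 378 and 412 FPKM in COS+APAP, 26.9 and 72.8 FPKM in APAP, and 3.16 and 3.34 FPKM in control livers. It was called in all 3 comparisons (APAP vs control 4.06, COS+APAP vs APAP 3.02, COS+APAP vs control 7.08). Orm2, an acute-phase orosomucoid, was higher in COS+APAP than in APAP (4.44) and in control (4.11), and Orm3 higher than in APAP (3.14). Apom was higher in APAP than in control (2.13) and lower in COS+APAP than in APAP (-1.71). Rbp4, the retinol carrier, was not called in any comparison. Of 29 abundant secreted hepatocyte proteins, 10 were higher and 3 lower in APAP vs control (median 0.29), 8 and 0 in COS+APAP vs APAP (0.11), and 9 and 1 in COS+APAP vs control (0.23). The largest of these changes were in Apob (3.41) and Fga (1.69) above and Ttr (-0.78) and Apoc4 (-0.62) below control in APAP, in Hp (2.05) and Itih4 (1.48) in COS+APAP against APAP, and in Fga (2.97), Fgg (2.63) and Apoc1 (-0.49) in COS+APAP against control.

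Markers of some other cell types differed between the groups. The summed FPKM of erythroid markers was 309 and 316 in COS+APAP, 1492 and 1075 in APAP, and 298 and 269 in control, with 4 of 5 tested genes higher in APAP vs control and 4 of 5 lower in COS+APAP vs APAP. Sinusoidal endothelial markers summed to 31.4 and 27.9 FPKM in COS+APAP, 56.9 and 53.9 FPKM in APAP, and 43.4 and 49.7 FPKM in control. Of 12 tested, 9 were lower and 1 higher in COS+APAP vs APAP, 6 lower and 1 higher in COS+APAP vs control, and 1 lower and 4 higher in APAP vs control. Kupffer cell and monocyte markers summed to 164 and 171 FPKM in COS+APAP, 196 and 233 FPKM in APAP, and 169.6 and 149.6 FPKM in control. Of 13 tested, 4 were higher and 0 lower in APAP vs control, and 1 higher and 2 lower in COS+APAP vs APAP. Stellate cell markers had 4 of 7 lower in COS+APAP vs APAP, 3 of 7 lower in COS+APAP vs control and 2 of 7 higher in APAP vs control. Cholangiocyte markers had 2 of 3 lower in COS+APAP vs APAP and 1 of 3 higher in APAP vs control. Neutrophil markers summed to 4.09 and 2.66 FPKM in COS+APAP, 32.5 and 10.9 FPKM in APAP, and 4.15 and 6.93 FPKM in control, with 1 of 3 tested genes higher in APAP vs control and 1 lower in COS+APAP vs APAP. Lymphocyte markers (1 tested) summed to at most 5.79 FPKM in any library. The neutrophil markers Ly6g and Camp were at 0 in every library. The part of these cells, and of blood in the tissue, in the Mup differences was not tested.

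The genes whose levels most resembled the sum of the 7 Mup genes over the 6 libraries were Rtn3 (Pearson r = 0.98), C1qb (0.97), Gpx1 (0.96), Aadat (0.96) and Uba1 (0.95), out of 2692 genes with a mean of at least 10 FPKM. They are given as a description only, since the 6 points share libraries and group structure. C1qb, a complement subunit made by macrophages, had 26.0 and 26.2 FPKM in COS+APAP, 29.3 and 38.2 FPKM in APAP, and 27.5 and 20.3 FPKM in control livers. Gpx1, glutathione peroxidase 1, had 691 and 629 FPKM in COS+APAP, 869 and 1136 FPKM in APAP, and 989 and 532 FPKM in control livers. In each of the 5, as in the Mup sum, APAP replicate 3 was the highest library and control replicate 3 the lowest. This follows largely from picking them for likeness to that sum.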

How the data were processed

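Liver poly(A) RNA of 6 libraries in 3 groups was sequenced. Per the submitters' processing notes, the authors used HISAT2 2.0, an aligner, and StringTie 1.3.0, an assembler. Their genome build was not given in the sources used here. Per the file headers, the authors deposited estimated counts and FPKM for each gene in each library. Another 6 per-sample columns matched no sample and were not used. The counts were whole numbers already. Genes with a mean of at least 1 FPKM (10051) were tested with edgeR 4.0.16 (R 4.3.3), quasi-likelihood F test, TMM scaling, 1 model of 3 groups over 6 libraries, two-sided, Benjamini-Hochberg adjustment over all tested genes and a threshold of 0.05, checked on simulated data. Standard errors (SE) were derived as log2 fold change over the root of the F statistic. An exact permutation test of 2 libraries against 2 cannot give a p under 0.33.

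The genes and gene lists were chosen with earlier results of these data known. Named genes are the 7 Mup genes, every other Mup entry, 17 preset regulators and carriers and, from each list and comparison, the 2 called genes with the largest rise and the 2 with the largest fall. Marker lists of other cell types are given by counts and sums. One gene that this rule names is not reported here. Genes like the Mup sum are the 5 with the highest r on log2(FPKM + 1). Identities come from global alignments (MAFFT 7.526) of GENCODE vM21 coding sequences, and promoters from RefSeq. Alternatives were DESeq2 1.42.0, limma 3.58.1 on log2(FPKM + 1) and log2(FPKM + 0.1), other scalings, no filter, only the groups compared, a replicate block and each library left out.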

Additional observations from a re-analysis of the deposited data

How the results depend on the processing

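Of 301 repeats of single-gene results under other settings, 277 kept direction and side of the threshold, 13 lost the call, 5 gained one and 6 turned sign. Mup18 was called in APAP vs control and in COS+APAP vs APAP under every setting run. The count of called genes in APAP vs control, 3, was 5 by DESeq2 and 2 to 3 with 1 library left out. In COS+APAP vs APAP the count, 3, was 5 by DESeq2 and 1 to 2 with 1 library left out. DESeq2 called more of all genes too, 3552 against 2249 in COS+APAP vs APAP and 3422 against 2109 in COS+APAP vs control. In COS+APAP vs control 0 of the 7 were called under every setting run, by edgeR, DESeq2 and limma.

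With 1 library left out, signs turned within these ranges of log2 fold change. Mup11 ranged from -0.10 (without APAP replicate 3) to 0.49 in APAP vs control, also turning without control replicate 3 (-0.07), and from -0.0052 (without APAP replicate 1) to 0.53 in COS+APAP vs APAP. In COS+APAP vs control, Mup3 ranged from -0.15 to 0.12 (without control replicate 1), Mup7 from -0.044 (without control replicate 3) to 1.56, and Mup21 from -0.064 (without COS+APAP replicate 2) to 0.68. With 1 library left out, the log2 ratio of the summed FPKM ranged from 0.16 to 0.69 in APAP vs control. It ranged from -0.58 to -0.16 in COS+APAP vs APAP and from -0.23 to 0.31 in COS+APAP vs control. With all libraries but other scalings or sets of Mup entries, the ratio of the sums was 0.50 to 0.60 in APAP vs control. It was then -0.50 to -0.26 in COS+APAP vs APAP and 0.10 to 0.24 in COS+APAP vs control. Scaling by library totals alone brought the median log2 fold change of all genes to -0.15 in both comparisons with control, against -0.00 (APAP) and 0.02 (COS+APAP) with TMM. The cause of these shifts was not tested.

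Replicate numbers 1 and 3 occur in both APAP and control. Same-numbered libraries did not deviate together (correlation of deviations 0.0175), so the numbers were not taken as pairs. With the replicate block, 2 of 7 genes were called, Mup18 and Mup21, and 3187 of all genes against 4561. COS+APAP shares only number 3 with the other groups, so no such fit was made for it. Leaving out a library leaves 1 in its group, which is assumed to vary like the others. The lowest value of the 7 genes was 577 estimated counts, and how reads were split among copies was not tested.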
